A study of Homo sapiens with 4 samples.

Results

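The genes described here are 9 interferon-induced genes that code for membrane proteins and other small proteins: IFITM1, IFITM2, IFITM3, IFI6, IFI27, IFI35, IFI44, IFI44L and BST2. They were taken by gene name from a table of 47251 genes, and all 9 were found in it. RNA was sequenced from AGS, an established human gastric adenocarcinoma cell line grown in DMEM with FBS. Cells of the sh-MFAP2 group (2 libraries) were infected with a lentivirus carrying a short hairpin RNA against MFAP2, a protein of extracellular microfibrils. Cells of the control group (2 libraries) were infected with a lentivirus carrying a scrambled hairpin. Both groups therefore shared infection, a hairpin and selection with puromycin for some weeks, infection was followed by green fluorescent protein, and no uninfected cells were compared. The labels of both sh-MFAP2 libraries carry the same hairpin name, and they do not say whether the 2 libraries of a group came from separate cultures, so the spread between them may be technical.

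Type I and type III interferons act through receptors and the kinases JAK1 and TYK2 on a complex that includes STAT2 and IRF9. This complex binds the interferon-stimulated response element, whose core repeats GAAA with a short gap, and turns on a large set of genes, among them these 9. The IFITM proteins sit in the plasma membrane or endosomes and hinder the fusion of enveloped viruses with the cell. BST2, also called tetherin, holds budding virus particles at the cell surface. IFI6 and IFI27 are small hydrophobic proteins of 1 family, IFI35 is a leucine zipper protein that pairs with NMI, and IFI44 and IFI44L are related proteins of the cytoplasm.

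The response element is shown first, because it is the sequence bound by the complex that includes STAT2 and IRF9. RefSeq promoters (GRCh38.p14, from 250 bases before to 50 bases after the start site) were matched to 8 of the 9 genes, all but IFITM2. The letters GAAANNGAAA, searched on both strands, were present in at least 1 promoter of 7 of these 8 genes, compared with 4.38% of all 27305 genes with a promoter and 3.57% of all 35116 promoters. For each of the 7 genes the match nearest the start site is printed 5′ to 3′ on the strand that carries it, with the 10 letters of the match in capitals.
IFITM1: acacttctgaGAAACTGAAAcgacagggga
IFITM3: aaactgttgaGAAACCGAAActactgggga
IFI6: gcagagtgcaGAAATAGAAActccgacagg
IFI27: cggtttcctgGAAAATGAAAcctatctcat
IFI44: tcagagaaagGAAACTGAAActcagtgtgc
IFI44L: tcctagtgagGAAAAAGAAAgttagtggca
BST2: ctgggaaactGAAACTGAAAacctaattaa

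The windows lie at chr11:314024-314053 on the plus strand for IFITM1, chr11:320876-320905 on the minus strand for IFITM3 and chr1:27672266-27672295 on the minus strand for IFI6. Those of the remaining genes lie at chr14:94110631-94110660 on the plus strand for IFI27, chr1:78649761-78649790 on the minus strand for IFI44, chr1:78620365-78620394 on the plus strand for IFI44L and chr19:17405735-17405764 on the minus strand for BST2. IFITM1 had the match closest to its start site, which began 6 bases upstream and ran across it, and that of BST2 lay 124 bases upstream. The match of IFI44 ran against the direction of the gene, and a further match of IFI27 did so too. IFI44L carried the same 30 bases a second time, 164 bases upstream of the start site. In IFI6 there were 3 matches, and in BST2 the 2 matches overlapped. IFI35 held no such letters in this window. The letters TTCNNNGAA, the core of the gamma-interferon activated site, were present in at least 1 promoter of 4 of the 8 genes (IFITM1, IFI27, IFI35 and BST2), compared with 9.38% of all genes and 7.66% of all promoters. These matches describe the sequence only, since no binding was measured. BST2, the 1 member with lower levels in sh-MFAP2 cells, shared the letters GAAANNGAAA with IFITM1, IFITM3, IFI6, IFI27 and IFI44, which had higher levels.

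**Figure D1:**
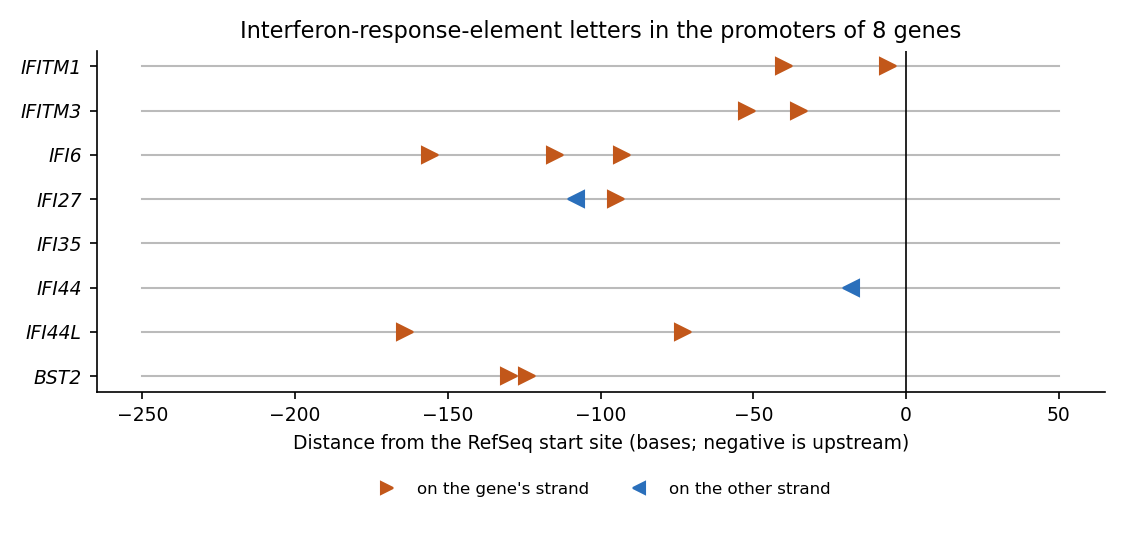
Matches to GAAANNGAAA in the RefSeq promoters of 8 genes, as triangles at the distance of their upstream end from the start site in bases (negative is upstream), pointing along or against the gene. All matches begin upstream of the start site, the nearest of IFITM1 runs across it, 7 of the 8 genes have at least 1, and the line of IFI35 is empty.

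The gene values are FPKM, counts of fragments scaled by gene length and library size, a unit taken from the values because the table does not name it. The targeted gene MFAP2 stood at 0.0116 and 0.0138 FPKM in the control libraries and was listed at 0 in both libraries with its hairpin. It was thus close to 0 throughout, and its level could not check the labels or the knockdown. The paper reports the knockdown by western blot and real-time PCR. The steps between low values implied 54800000 to 74800000 reads per library, if 1 step is 1 read. Of the low values on whole steps, 69.1% to 74.4% lay on even ones, so the fragments may be fewer than the reads. Of the epithelial markers, EPCAM, KRT8, KRT18 and KRT19 had 193 FPKM or more in every library. CLDN4 was uneven within a group, at 47.1 and 0.0151 FPKM with sh-MFAP2 and at 0.291 and 0.551 FPKM in control cells. The summed level of 6 immune markers was 3.20 to 3.23 FPKM in sh-MFAP2 and 7.25 to 7.93 FPKM in control libraries, nearly all of it CD68, and that of 8 stromal and endothelial markers was 2.12 to 2.29 and 4.42 to 4.96 FPKM, nearly all of it COL1A1. The other 5 immune markers, PTPRC and CD3E included, stayed at or under 0.0511 FPKM and the other 7 stromal markers at or under 0.0298 FPKM. The part of CD68 and COL1A1, named after their values were seen, in the results that follow was not tested.

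Across the 9 genes, 7 had higher levels in both sh-MFAP2 libraries than in both control libraries, and BST2 had lower levels in both. The groups of IFI44L, whose mean was under 1 FPKM, overlapped. Among all genes tested, both sh-MFAP2 values lay above both controls for 17.5% and below them for 31.4%. The 7 higher members differed by ratios of the group means from 1.17 (IFITM2) to 1.83 (IFI35). None of the 8 genes that reached a mean of 1 FPKM passed the test across all genes (limma on log2(FPKM + 1), p under 0.01 and Benjamini-Hochberg adjusted p under 0.05), and their adjusted p ran from 0.27 to 0.547. This test called 27 of 9873 genes, 0.273%. Because these are bulk samples, fewer cells that express a gene and less RNA per cell cannot be told apart. With 2 libraries against 2, an exact permutation test cannot give a two-sided p under 0.333.

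**Figure D2:**
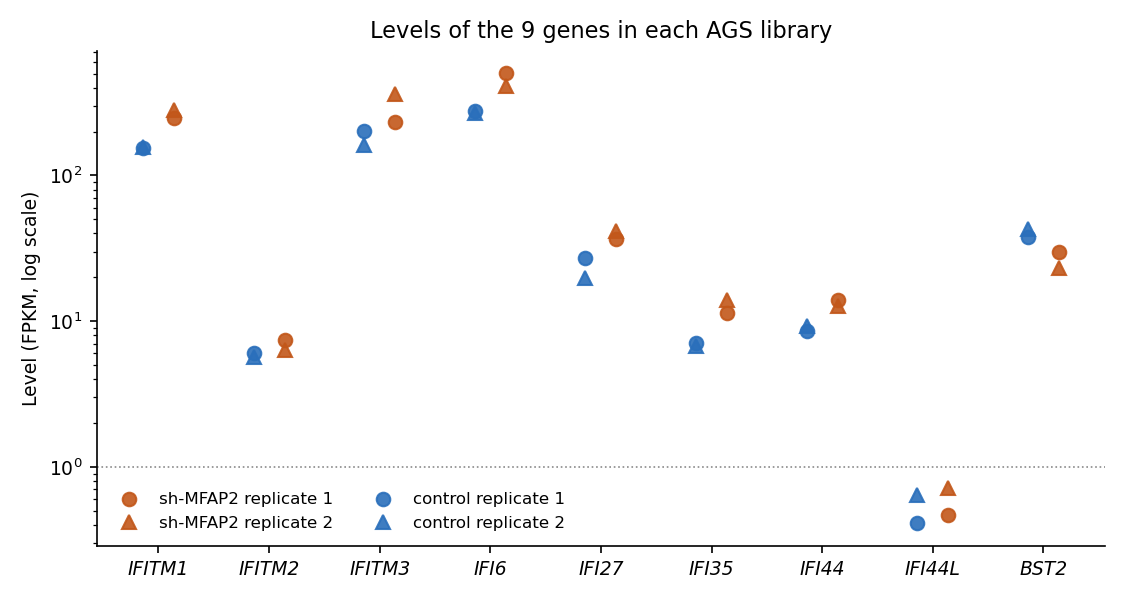
Level of each of the 9 genes in each of the 4 libraries, in FPKM on a log scale, with blue for control, orange for sh-MFAP2, circles for replicate 1 and triangles for replicate 2. The dotted line is 1 FPKM, the mean required for the test, and IFI44L alone lies under it. Orange points lie above blue points for 7 genes and below them for BST2.

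IFITM1 (chr11:313506-315272, plus strand, GENCODE 29) had 246 and 279 FPKM with sh-MFAP2, against 155 and 157 FPKM with the scrambled hairpin. Libraries of 1 group lay close together and the groups were far apart, with a ratio of means of 1.68. The log2 fold change of FPKM + 1, on which all fold changes here are given, was 0.74 (standard error of the mean difference, SE, 0.12, from 2 libraries per group as in all tests here, 95% interval 0.40 to 1.09, adjusted p = 0.27). This was the smallest adjusted p among the members.

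IFITM3 (chr11:319669-327537, minus strand) reached 233 and 362 FPKM with sh-MFAP2, compared with 202 and 163 FPKM in the controls. The groups did not overlap, but the lower sh-MFAP2 library was much nearer to the higher control than to its own replicate. The log2 fold change was 0.68 (SE 0.28, 95% interval -0.11 to 1.46, adjusted p = 0.424), and it was 0.36 without sh-MFAP2 replicate 2.

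IFITM2 (chr11:307631-315272, plus strand) stood far lower than its neighbours, at 7.40 and 6.34 FPKM with sh-MFAP2 against 6.03 and 5.71 FPKM without. Its difference was small, with a log2 fold change of 0.19 (SE 0.12, 95% interval -0.15 to 0.54, adjusted p = 0.547), which was 0.10 without sh-MFAP2 replicate 1 and 0.29 without sh-MFAP2 replicate 2. When the transcripts of the gene were summed in place of its own row, the groups overlapped, at 16.1 and 12.2 against 13.3 and 12.1 FPKM. The 3 IFITM genes share sequence. Of the 50-base windows of the most abundant IFITM1 transcript, 38.9% occur in transcripts of another gene, 35.5% in those of IFITM2 and 12.3% in those of IFITM3. For the most abundant transcripts of IFITM3 and IFITM2 the shares in any other gene were 20.3% and 17.3%. Of the IFITM2 windows, 9.0% occur in transcripts of IFITM1. The annotated span of IFITM2 also covers IFITM1 on the same strand, and antisense genes overlap IFITM2, IFITM3 and IFI6. How reads were divided among these genes, and whether strand was used, is not given in the sources used here, so the split between IFITM1, IFITM2 and IFITM3 is uncertain.

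BST2 (chr19:17402939-17405648, minus strand) was the 1 member with lower values. Its controls stood at 37.6 and 42.9 FPKM and its sh-MFAP2 libraries at 29.6 and 23.1 FPKM, a difference of the means of -34.5%. The groups did not overlap, and BST2 had a log2 fold change of -0.60 (SE 0.17, 95% interval -1.09 to -0.11, adjusted p = 0.393). In the values as deposited, a difference in this direction was the commoner one. Both sh-MFAP2 values lay below both controls for 31.4% of all genes tested, but 5.7% of genes had a lower fold change than BST2. Of the genes at an unadjusted p under 0.05, 31.6% were in the higher direction. This share was 47.1% after quantile normalization and 49.3% after scaling by the median of ratios. BISPR, a long non-coding RNA that starts beside BST2 on the opposite strand (chr19:17405686-17419324) and is known as a positive regulator of it, gave 0.105 and 0.0896 FPKM with sh-MFAP2 and 0.0433 and 0.102 FPKM without, too low to test.

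IFI6 (chr1:27666061-27672218, minus strand), which protects cells from apoptosis, was the most abundant member. The MFAP2 hairpin libraries had 503 and 414 FPKM of it and the scrambled ones 279 and 268 FPKM, and all sh-MFAP2 values were above all control values. IFI6 differed by a log2 fold change of 0.74 (SE 0.15, 95% interval 0.32 to 1.15, adjusted p = 0.33).

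IFI27 (chr14:94104836-94116698, plus strand), a mitochondrial protein of the same family, measured 36.7 and 41.7 FPKM with sh-MFAP2 but 27.1 and 19.9 FPKM in the controls. The groups were separate, although the control libraries differed from each other more than the sh-MFAP2 libraries did. For IFI27 the log2 fold change was 0.73 (SE 0.20, 95% interval 0.17 to 1.29, adjusted p = 0.374). Its family members IFI27L1 and IFI27L2 flank it on chromosome 14. They had log2 fold changes of 0.35 (adjusted p = 0.489) and 0.30 (adjusted p = 0.441), again with both sh-MFAP2 values above both controls.

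IFI35 (chr17:43006725-43014456, plus strand) had the largest ratio among the members. Its values were 11.3 and 14.1 FPKM with sh-MFAP2 and 7.11 and 6.74 FPKM in control cells, with no overlap. Its log2 fold change was 0.78 (SE 0.15, 95% interval 0.37 to 1.20, adjusted p = 0.313), which ranked 238 among 9873 genes from the highest. Its binding partner NMI showed 12.2 and 13.9 FPKM with sh-MFAP2 and 8.93 and 10.4 FPKM in control cells. The log2 fold change of NMI was 0.40 (SE 0.14, adjusted p = 0.4). Both partners were thus higher in each sh-MFAP2 library, IFI35 by the larger ratio, 1.83 against 1.35.

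IFI44 (chr1:78649796-78664078, plus strand) had 13.98 and 12.7 FPKM with sh-MFAP2 and 8.55 and 9.30 FPKM in control cells. The groups were apart, with a log2 fold change of 0.53 (SE 0.11, 95% interval 0.21 to 0.86, adjusted p = 0.332). Its paralogue IFI44L lies just upstream of it (chr1:78619922-78646145, plus strand). This paralogue stayed low, at 0.466 and 0.712 FPKM with sh-MFAP2 and 0.411 and 0.638 FPKM in control cells. Levels of IFI44L interleaved, its mean was under the limit for the test, and its difference of 0.06 in log2 value was smaller than the SD between replicates of 0.155. About 249 to 489 reads per library would lie behind these low values on the same assumption.

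The order of the levels also differed between the groups. In the controls the order from high to low was IFI6, IFITM3, IFITM1, BST2, IFI27, IFI44, IFI35, IFITM2 and IFI44L, and no 2 neighbours overlapped between the 2 libraries. In the sh-MFAP2 libraries IFITM3 overlapped with IFITM1, and IFI35 with IFI44. BST2 lay above IFI27 in both controls and below it in both sh-MFAP2 libraries. This order holds for the gene rows only. How the gene rows were computed is not given in the sources used here. The transcripts of IFI27 summed to 161 to 347 FPKM per library, well above its gene row and above those of BST2, at 25.7 to 47.7 FPKM.

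**Figure D3:**
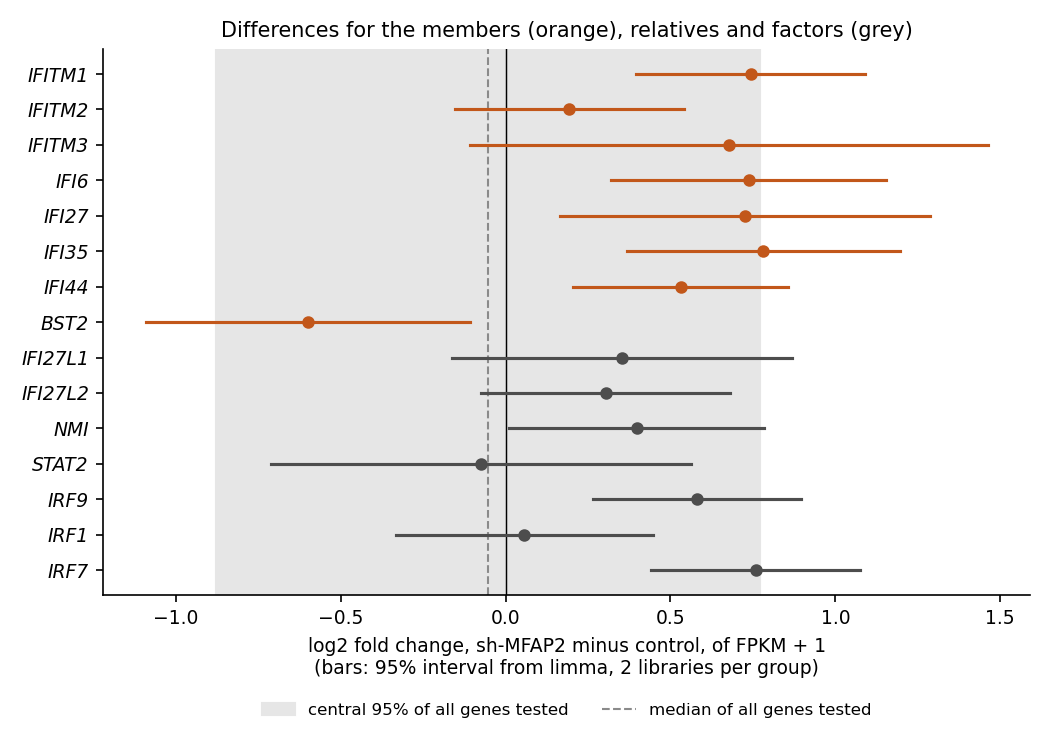
The log2 fold change of FPKM + 1 between sh-MFAP2 and control for the 8 members tested (orange), and for 3 relatives and 4 transcription factors (grey), with bars for the 95% interval from limma (2 libraries per group). The grey band holds the central 95% of the 9873 genes tested, from -0.88 to 0.77, and among the orange points IFI35 alone lies outside it, at 0.78.

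Set beside all genes tested, 7 of the 8 members had both sh-MFAP2 values above both controls, compared with 17.5% of all genes. At an unadjusted p under 0.05 there were 5 members in the higher direction, compared with 3.89% of all genes, and 1 in the lower direction, compared with 8.41%. The share of the higher direction among all genes at this p was 31.6%, and it was 47.1% after quantile normalization and 49.3% after scaling by the median of ratios. The members' median log2 fold change was 0.70, with a range from -0.60 to 0.78, whereas that of all genes was -0.05. The 6 members at an unadjusted p under 0.05 became 7 after quantile normalization and 7 after scaling by the median of ratios. They became 5 with the replicate number as a block in the fit. The members' median log2 fold change ran from 0.55 to 0.75 on leaving out each library in turn. Since the members were chosen with earlier results known, these counts are a description.

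The upstream pathway was measured in the same libraries. The transcription factors of the pathway did not all show the direction of the members. IRF7, an interferon-induced factor that amplifies interferon production, had 21.3 and 19.7 FPKM with sh-MFAP2, against 11.3 and 12.1 FPKM in control cells. Its log2 fold change was 0.76 (SE 0.11, adjusted p = 0.238), about that of IFITM1 and IFI6. IRF9 had 12.6 and 14.02 FPKM against 8.70 and 8.42 FPKM, with a log2 fold change of 0.58 (SE 0.11, adjusted p = 0.32), and the groups of both factors were apart. STAT2 and IRF1 overlapped between groups, with log2 fold changes of -0.07 (adjusted p = 0.897) and 0.06 (adjusted p = 0.867). None of the 7 factors tested was called.

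Among all genes tested, both sh-MFAP2 values lay above both controls for 17.5% and below them for 31.4%, and 5041 of 9873 overlapped. Of 9 interferon genes, 2 reached a mean of 1 FPKM, with log2 fold changes of 0.22 and 0.58. Both were higher in both sh-MFAP2 libraries and neither was called. Interferon genes under this mean went in both directions, among them a gene at 0.619 and 0.579 FPKM in the controls and 0 in both sh-MFAP2 libraries. Of the receptors and kinases, 8 were tested, 6 of them overlapped between groups, and their median log2 fold change was -0.02. Of 5 negative regulators, 4 were tested, 1 of them above and 1 below the controls in both sh-MFAP2 libraries, with a median of 0.02. Of 46 other interferon-stimulated genes, 38 were tested and 0 were called. At an unadjusted p under 0.05, 11 were higher and 0 lower in sh-MFAP2 cells, compared with 3.89% and 8.41% of all genes tested. Both sh-MFAP2 values lay above both controls for 22 of the 38, compared with 17.5% of all genes, and below them for 0, compared with 31.4%. This list too was chosen with earlier results known, so its counts are a description. The median log2 fold change of the 38 was 0.36, or 0.20 without sh-MFAP2 replicate 2. Their fold changes ran from -1.32 (SAMD9) to 2.63 (IFIT5), the smallest adjusted p was 0.137 (ISG15), and these 3 genes were named after their values were seen. Both ends of this range rest on uneven controls, at 0.235 and 5.59 FPKM for SAMD9 and 1.13 and 0.0531 FPKM for IFIT5. The groups of SAMD9 overlapped. In the RefSeq promoters, 22 of the 36 of these genes with an entry held GAAANNGAAA.

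**Figure D4:**
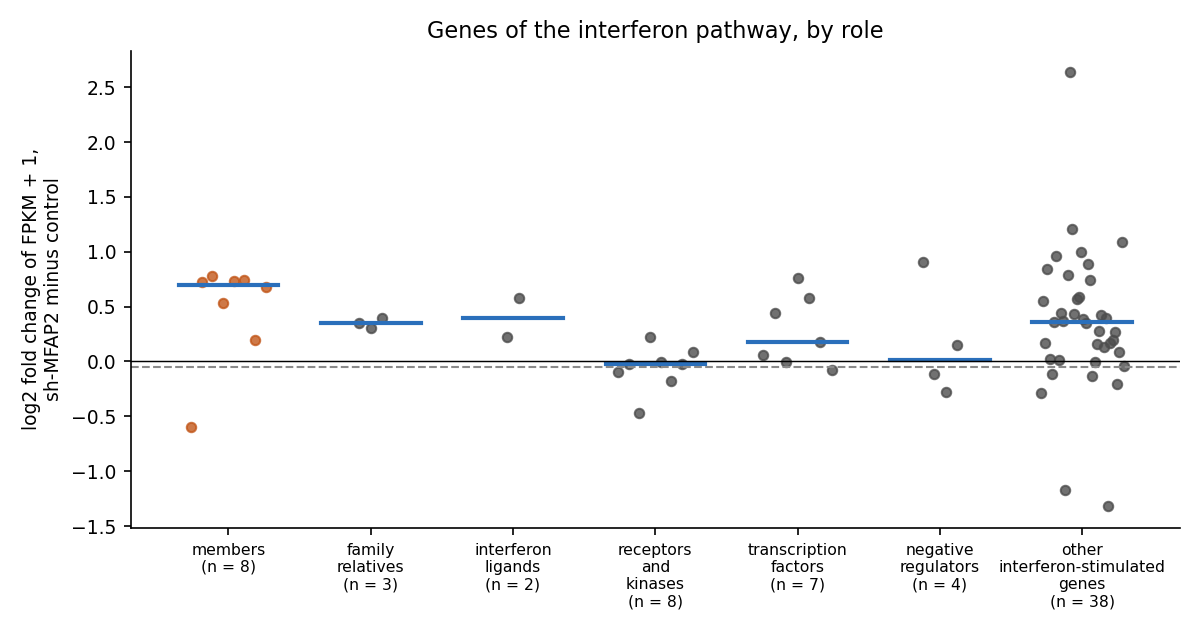
The log2 fold change of FPKM + 1 between sh-MFAP2 and control for each gene tested of 7 lists, with a blue line at the median of each list and a dashed line at the median of all genes tested, -0.05. Members have a median of 0.70 with BST2 as the low point, receptors and kinases lie around 0, and the other interferon-stimulated genes spread from -1.32 to 2.63.

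Transcript values showed which transcripts carried the levels of the members. Of the transcripts of the members, 21 had a mean of at least 1 FPKM and 0 were called, where the same test called 0 of 22312 transcripts (0%). At an unadjusted p under 0.05 there were 7 of the 21, against 7.64% of all transcripts. Both sh-MFAP2 values lay above both controls for 13 of the 21, compared with 17.8% of all transcripts, and below for 1, compared with 24.9%. The smallest adjusted p was 0.563.

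IFI27 varied little in make-up, and 4 of the 5 transcripts of IFI27 and both of IFI44 were higher in both sh-MFAP2 libraries. The main IFI27 transcript, ENST00000618200, was at 183 and 205 FPKM against 122 and 87.3 FPKM in the controls (log2 fold change 0.90, adjusted p = 0.563). It made up 54.2% to 59.7% of the gene in every library. Both IFI35 transcripts and the 3 IFITM3 transcripts were likewise higher in both sh-MFAP2 libraries. BST2 had 1 transcript above the limit, ENST00000252593, at 32.3 and 25.3 FPKM with sh-MFAP2 and 41.3 and 46.9 FPKM in the controls.

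IFI6 was carried by 3 transcripts of nearly equal length. The main one, ENST00000361157, was at 429 and 292 FPKM with sh-MFAP2 and 201 and 160.2 FPKM in the controls, while the other two overlapped between groups. In IFITM1 the make-up followed the replicate number and not the hairpin. ENST00000408968 was at 136 and 115 FPKM in the replicates 1 of sh-MFAP2 and control and at 0.0655 and 0.118 FPKM in the replicates 2. ENST00000328221, which carried the rest, was at 176 and 357 FPKM with sh-MFAP2 and 81.6 and 201 FPKM in the controls. The gene row of IFITM1 did not show this division. In IFITM2, ENST00000616316 was at 2.19 and 4.76 FPKM with sh-MFAP2 against 1.54 and 2.07 FPKM, whereas the log2 fold changes of the other two transcripts were -0.13 and -0.11, with overlapping groups.

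**Figure D5:**
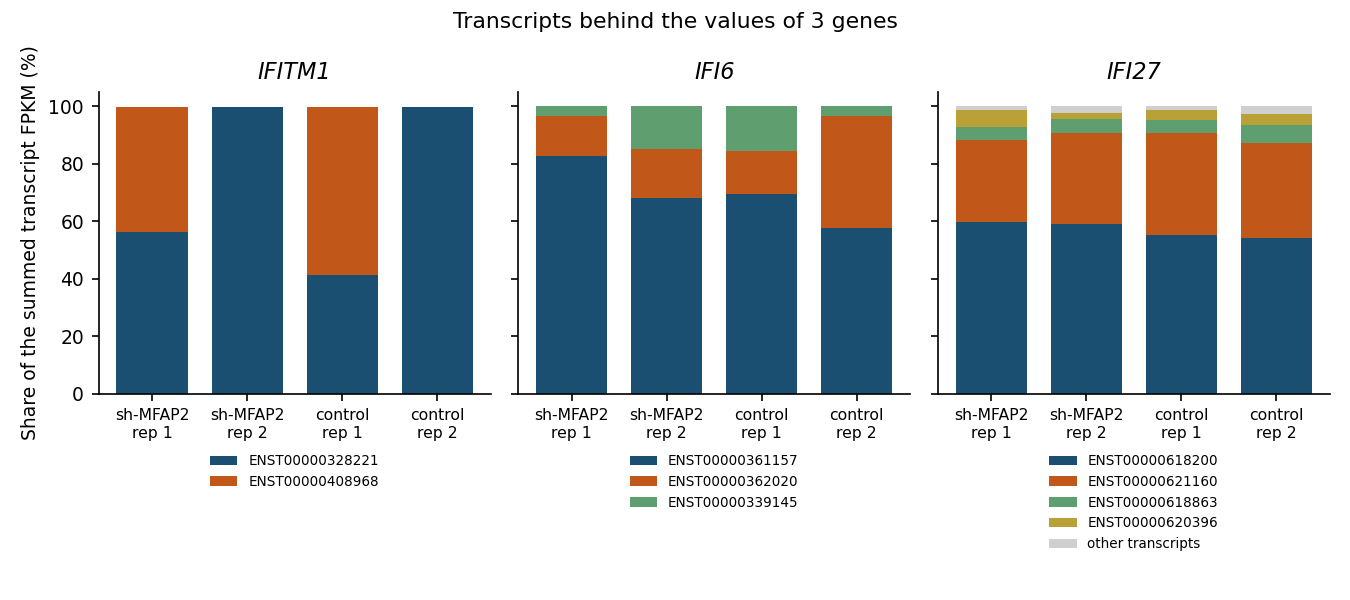
Share of the summed transcript FPKM taken by each transcript of IFITM1, IFI6 and IFI27 in each library, in percent. In IFITM1 the orange transcript makes up 43.4% and 58.5% in the replicates 1 and under 1% in the replicates 2, whereas the shares of IFI27 stay close together.

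The remaining relatives, IFITM5, a bone protein, and IFITM10, were at or under 0.0498 FPKM in every library and gave no comparison. Of the 6 relatives listed, 3 were tested and none was called. All 3 had both sh-MFAP2 values above both controls, compared with 17.5% of all genes tested.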

How the data were processed

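RNA-seq libraries of AGS cells, 2 with sh-MFAP2 and 2 controls, were grouped by their labels. Values for 47251 genes and 180500 transcripts were deposited by the authors with 1 column per library, and were taken here as FPKM because they lay on steps of 1 over the length and summed to no fixed total. They were made on hg38 per the labels, and the aligner, estimator and annotation are not given in the sources used here. Low values gave whole multiples of 1 step (tolerance 0.05) in 61.4% to 62.6% of cases. This was too few to recover counts, so no count test was run.

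Only genes averaging at least 1 FPKM over the 4 libraries were tested, on log2(FPKM + 1) with limma 3.58.1 (lmFit, eBayes with trend, R 4.3.3), Benjamini-Hochberg adjusted over all genes tested, and called at p under 0.01 and adjusted p under 0.05. Transcripts were tested in the same way. A pseudocount of 1 understates the change of low genes. The code was tested on simulated data. The study's methods name a random variance model test at the same thresholds, and limma likewise shares variance between genes. The members and the gene lists were chosen with earlier results of these data known. By rule, the genes named were all 9 members, their relatives, STAT2, IRF9, IRF1, IRF7, MFAP2, any listed gene that was called, and transcripts of members with a mean of at least 1 FPKM, except that 2 listed genes are not reported here. The cell type markers, ISG15, SAMD9 and IFIT5 lay outside this rule and were named after their values were seen, and no listed gene was called. Coordinates come from GENCODE 29 (GRCh38), which held 43715 of the gene identifiers. Promoters were RefSeq sequences on GRCh38.p14, and distances for IFI27 and IFI44 refer to the first of 2 listed start sites. Alternatives were other filters on low values, pseudocounts, scalings and variance priors, the replicate number as a block, transcript sums as gene values, and omission of each library in turn. Tables and figures were made in Python 3.11.15 (numpy 2.4.6, pandas 2.3.3, matplotlib 3.10.9).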

Additional observations from a re-analysis of the deposited data

How the results depend on the processing

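Depth was implied at 54800000 to 74800000 reads per library, if 1 step is 1 read. IFI44L was too low for a test at a mean of 1 FPKM. Members, other interferon-stimulated genes and transcripts of members gave 0 calls in all alternatives run for them. The 27 genes called across the table became 6 with no filter on low values, 9 at a mean of at least 5 FPKM, 0 with the replicate block and 0 to 0 on leaving out each library, and 722 genes had an unadjusted p under 0.05 with the block. Taken over all genes, libraries with the same number did not deviate together from their group means (r = -0.06 over 9873 genes), so no pairing was assumed. This value does not speak for single genes or transcripts, and the transcript make-up of IFITM1 did follow the replicate number. The smallest adjusted p of a member with the block was 0.614. The members' median log2 fold change of 0.70 became 0.63 after quantile normalization and 0.55 to 0.75 on leaving out each library, lowest without control replicate 2. In the leave-one-out fits the lone library of a group is assumed to vary like the others. Of the members tested, 7 stayed higher and BST2 stayed lower in all 12 alternatives, with IFITM3 from 0.36 to 0.99 and BST2 from -0.77 to -0.43. The difference of IFI44L ran from -0.05 to 0.17 on leaving out each library. Scaling moved the median of all genes from -0.05 to at most 0.01. The cause of these shifts was not tested.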
